A study of Mus musculus with 4 samples.

Results

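The genes described here are the globins and 2 other genes of the red cell in bulk RNA-seq of the embryonic mouse cortex. They were taken by symbol from the deposited count table, where 9 of 26433 genes matched. The adult-type globins were Hba-a1, Hba-a2, Hbb-bs and Hbb-bt, and the embryonic globins were Hba-x, Hbb-y and Hbb-bh1. Alas2 and Slc4a1 were the other 2 members.

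The libraries were made from cerebral cortex of E15 embryos on a C57BL/6 background. There were 2 WT libraries, called WT1 and WT3, and 2 libraries of cKI f/+ embryos, called KI2 and KI3. The cKI f/+ embryos carry 1 copy of human SERPINA3 in the Rosa26 locus, behind a floxed STOP cassette and a CAG promoter. Nestin-Cre opens this cassette in Nestin-positive neural cells and their descendants, a driver that is not directed at red cells. The WT embryos were littermates. By the study's methods the floxed founders were bred with B6D2F2 mice, and the offspring of that cross with Nestin-Cre mice of C57BL/6 background, so the crosses were not of 1 pure strain. The labels do not say whether a library came from 1 embryo or from several.

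Hemoglobin is built from alpha-like and beta-like globin chains around heme. In the mouse embryo, primitive red cells from the yolk sac make embryonic chains, and definitive red cells from the fetal liver later replace them in the circulation and make adult-type chains. Red cells reach the brain in its vessels, so globin RNA in a dissected cortex can come from blood left in the tissue. In such bulk RNA, fewer red cells and less globin RNA per cell cannot be told apart.

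The promoters of 5 globins are printed here because the values below set embryonic against adult-type genes. Each run holds the 250 bases before the transcription start, from RefSeq on GRCm38.p6, written 5′ to 3′ on the strand of the gene. Capitals mark GATAA (the core letters bound by GATA factors), CACCC (bound by Krüppel-like factors such as Klf1), the CCAAT box, and a TATA box spelled either TATAAA or as the shifted form ATAAAA, which overlaps it. Each was searched on both strands, so a match on the other strand appears as its reverse complement, and neighbouring capitals can overlap. Hbb-bs lies at chr7:103827929-103828178, Hbb-bt at chr7:103813924-103814173 and Hbb-y at chr7:103853208-103853457, all on the minus strand. Hba-a1 lies at chr11:32283422-32283671 and Hba-x at chr11:32276350-32276599, both on the plus strand.
Hbb-bs: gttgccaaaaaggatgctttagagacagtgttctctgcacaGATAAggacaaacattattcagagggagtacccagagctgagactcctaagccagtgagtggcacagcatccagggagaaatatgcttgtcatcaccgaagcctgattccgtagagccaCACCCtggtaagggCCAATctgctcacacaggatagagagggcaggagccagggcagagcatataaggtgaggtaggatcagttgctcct
Hbb-bt: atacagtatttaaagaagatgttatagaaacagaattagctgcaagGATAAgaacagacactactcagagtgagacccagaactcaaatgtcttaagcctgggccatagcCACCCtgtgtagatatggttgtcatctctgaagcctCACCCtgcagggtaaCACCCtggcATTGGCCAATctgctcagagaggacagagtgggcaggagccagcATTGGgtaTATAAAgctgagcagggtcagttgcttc
Hbb-y: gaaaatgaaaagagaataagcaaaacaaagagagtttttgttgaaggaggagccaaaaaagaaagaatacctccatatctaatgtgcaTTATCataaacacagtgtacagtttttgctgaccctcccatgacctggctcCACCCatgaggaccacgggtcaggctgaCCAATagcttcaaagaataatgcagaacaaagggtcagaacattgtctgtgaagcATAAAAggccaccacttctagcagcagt
Hba-a1: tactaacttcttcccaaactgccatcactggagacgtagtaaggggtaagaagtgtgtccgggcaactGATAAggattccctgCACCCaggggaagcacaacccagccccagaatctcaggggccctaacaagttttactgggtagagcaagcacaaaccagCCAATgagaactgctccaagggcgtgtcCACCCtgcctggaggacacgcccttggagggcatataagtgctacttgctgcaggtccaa
Hba-x: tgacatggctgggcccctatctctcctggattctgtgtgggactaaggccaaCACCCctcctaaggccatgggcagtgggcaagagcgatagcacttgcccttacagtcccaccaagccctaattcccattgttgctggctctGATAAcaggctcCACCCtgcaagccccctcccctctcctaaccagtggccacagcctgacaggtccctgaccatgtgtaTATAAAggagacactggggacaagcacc

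The RefSeq starts of these 5 genes lie within the gene bounds that GENCODE gives, so parts of the runs are transcribed in the longest GENCODE models. A promoter was found for 7 of the 9 members, and Hbb-bh1 and Slc4a1 had no entry. Hbb-bs, Hbb-bt, Hbb-y, Hba-a1 and Hba-a2 each held the GATA, Krüppel-like and CCAAT-box letters together, a combination held by 3.45% of all 32851 promoter windows of this length. Singly, the GATA letters were in 22.6% of these windows, the Krüppel-like letters in 52.0%, the CCAAT-box letters in 33.8% and the TATA letters in 22.8%. In Hbb-y and Hba-x, as in Hbb-bt, the TATA letters began 28 bases before the start, while the windows of Hbb-bs and Hba-a1 held none in this spelling. Hba-x and Alas2 held the GATA and Krüppel-like letters but not the CCAAT box. These matches describe letters and do not show binding. The windows of Hba-a1 and Hba-a2 were identical over 247 aligned bases, and those of Hbb-bs and Hbb-bt over 71.7% of 244 aligned bases.

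The alpha-like genes lie in a cluster on chromosome 11 (GRCm38, plus strand), with Hba-x at chr11:32276400-32278116, Hba-a1 at chr11:32283511-32284465 and Hba-a2 at chr11:32296489-32297298. The beta-like genes lie in a cluster on chromosome 7 (minus strand), with Hbb-y at chr7:103851749-103853216, Hbb-bh1 at chr7:103841637-103843164, Hbb-bs at chr7:103826534-103828096 and Hbb-bt at chr7:103812524-103813996. Alas2 is at chrX:150547375-150570638 on the plus strand and Slc4a1 at chr11:102348824-102366203 on the minus strand.

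The adult-type globins come in near-identical pairs, which limits how reads can be assigned to one copy. The annotated mRNAs of Hba-a1 and Hba-a2 differed at 1 of 538 aligned bases, and 86.9% of the 50-base words of Hba-a2 also occurred in Hba-a1. Hbb-bs and Hbb-bt differed at 46 of 626 aligned bases, and 58.3% of the words of Hbb-bt occurred in Hbb-bs. Hbb-y, Hba-x, Hbb-bh1 and Slc4a1 shared 0 such words with another gene. Values of the single adult-type copies are therefore uncertain, and their sums are given beside them.

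The depth was between 17423512 and 18119444 counts per library. A floor of 3 counts corresponds to 0.166 to 0.172 CPM, the count of a gene scaled to a library total of 1e+06, and all intervals below cover counting error only. Neuronal and progenitor markers were high in each library (Neurod2, 14408 to 15072 reads). The groups also differed in sex-linked transcripts. Xist reads numbered 13223 in KI2 and 11882 in KI3 but 5 in WT1 and 5 in WT3, and Kdm5d had 0 reads in KI2 and KI3 against 951 in WT1 and 918 in WT3. Sex and genotype therefore cannot be told apart in any comparison here. KI3 stood apart in choroid plexus markers, where 6 listed genes summed to 67.5 CPM, against 10.4 in KI2 and 2.38 and 4.71 in the WT libraries. Their part in the globin values was not tested.

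Globins were a small part of these libraries. The 7 globin genes took 0.0498% of reads in KI2 (95% Wilson interval 0.0488 to 0.0508), 0.0378% in KI3 (0.0370 to 0.0387), 0.0499% in WT1 (0.0489 to 0.0510) and 0.0529% in WT3 (0.0518 to 0.0540). KI3 was the lowest, and KI2 lay within the intervals of WT1. The means were 0.0438% ± 0.00844 (SD, n = 2) in cKI f/+ and 0.0514% ± 0.00212 (SD, n = 2) in WT, a difference of -0.00761 percentage points (two-sided exact permutation test, p = 0.333, the smallest p that 2 against 2 libraries can give). Without KI3 the difference was -0.00164.

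**Figure D1:**
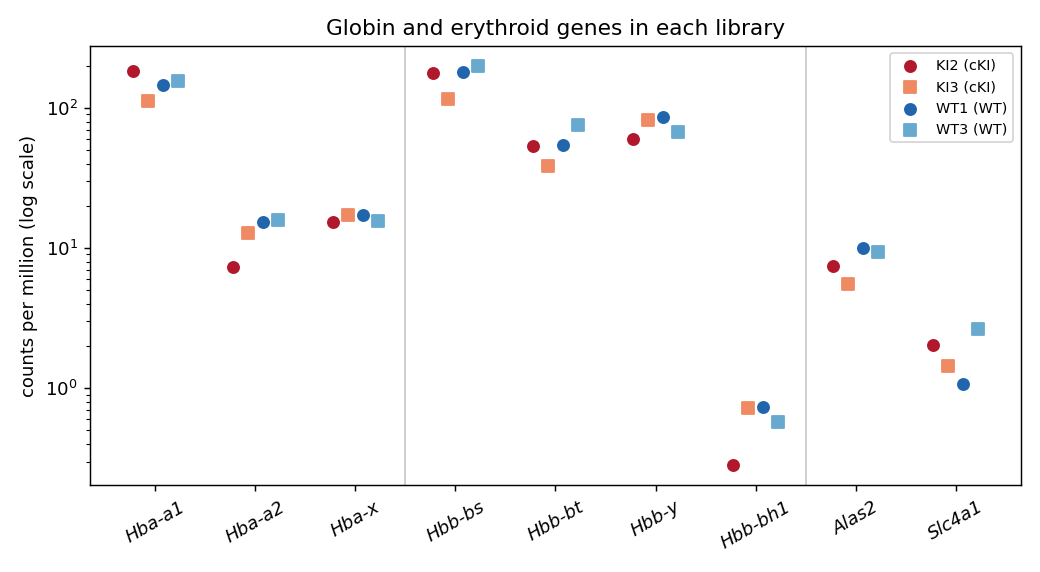
CPM of the 9 members, drawn on a log axis, with 1 point per library (red and orange cKI f/+, blue shades WT). KI3 is the lowest of the 4 libraries for Hba-a1, Hbb-bs, Hbb-bt and Alas2, but not for Hba-x and Hbb-y.

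Of the adult-type beta-like genes, Hbb-bs was the more abundant in each library. It had 178.0 and 114.9 CPM in KI2 and KI3, against 180.9 and 199.4 in WT1 and WT3. Hbb-bt had 53.6 and 38.2 CPM in KI2 and KI3, against 54.2 and 75.4 in WT1 and WT3. In both genes KI3 was low and WT3 high, while KI2 and WT1 were nearly level. Summed, the 2 genes had 231.6 and 153.2 CPM in KI2 and KI3, against 235.1 and 274.8 in WT1 and WT3. Hbb-bt made up 23.1% of adult-type beta-like reads in KI2 (95% Wilson interval 21.9 to 24.5), 25.0% in KI3 (23.4 to 26.6), 23.1% in WT1 (21.8 to 24.4) and 27.4% in WT3 (26.2 to 28.7).

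Among the adult-type alpha-like genes, Hba-a1 had 183.6 and 111.8 CPM in KI2 and KI3, against 145.5 and 154.8 in WT1 and WT3. The 2 cKI f/+ libraries were the highest and the lowest of the 4. Hba-a2 had 7.39 and 12.9 CPM in KI2 and KI3, against 15.3 and 15.8 in WT1 and WT3. Here KI2 was the low library, the reverse of its place for Hba-a1. Summed, the 2 genes had 191.0 and 124.7 CPM in KI2 and KI3, against 160.8 and 170.6 in WT1 and WT3. The ratio of Hba-a1 to Hba-a2 reads was 24.9 in KI2 and 8.66, 9.53 and 9.81 in KI3, WT1 and WT3. As a share of both copies, Hba-a2 was 3.87% in KI2 (95% Wilson interval 3.27 to 4.57) and between 9.25% and 10.4% in the other libraries, so KI2 differed from all 3 beyond counting error.

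The embryonic genes were not low in KI3, in contrast to Hbb-bs, Hbb-bt and Hba-a1, and neither was the adult-type Hba-a2. Hbb-y, the embryonic beta-like chain epsilon-y, had 59.6 and 82.6 CPM in KI2 and KI3, against 85.5 and 67.5 in WT1 and WT3. Each group held 1 library near 60 to 70 CPM and 1 above 80. Hba-x, the embryonic alpha-like chain zeta, was the steadiest member with 15.3 and 17.2 CPM in KI2 and KI3, against 17.1 and 15.7 in WT1 and WT3. Hbb-bh1, the embryonic beta-like gene that is silenced earlier than Hbb-y, had 5, 13, 13 and 10 reads in KI2, KI3, WT1 and WT3. Hbb-y reads outnumbered Hbb-bh1 reads 115.1-fold to 117.6-fold in KI3, WT1 and WT3, and 211.4-fold in KI2, where Hbb-bh1 rested on 5 reads.

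The embryonic share is taken within a library and so does not depend on its scaling or on the total of globin reads. Embryonic genes made up 20.5% of beta-like globin reads in KI2 (1062 of 5170, 95% Wilson interval 19.5 to 21.7), 35.2% in KI3 (1509 of 4284, 33.8 to 36.7), 26.8% in WT1 (1519 of 5660, 25.7 to 28.0) and 19.9% in WT3 (1186 of 5974, 18.9 to 20.9). KI3 and WT1 were high, and KI2 and WT3 were low with overlapping intervals. The 2 libraries of each group differed from each other beyond counting error.

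For the alpha-like genes KI3 and WT1 were again the higher libraries. Hba-x made up 7.41% of alpha-like reads in KI2 (95% Wilson interval 6.60 to 8.30), 12.1% in KI3 (10.9 to 13.4), 9.61% in WT1 (8.62 to 10.7) and 8.41% in WT3 (7.51 to 9.42). The interval of KI3 lay above those of the other 3 libraries, and the intervals of WT1 and WT3 overlapped. The beta-like and alpha-like shares come from separate genes but from the same 4 libraries.

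Between genotypes the shares differed by less than the spread within the groups. For beta-like reads the mean embryonic share was 27.9% ± 10.4 (SD, n = 2) in cKI f/+ and 23.3% ± 4.94 (SD, n = 2) in WT (two-sided exact permutation test, p = 0.667). For alpha-like reads it was 9.75% ± 3.31 (SD, n = 2) and 9.01% ± 0.845 (SD, n = 2; two-sided exact permutation test, p = 1.0). KI3 set the direction of both. Without it the difference of cKI f/+ from WT turned from 4.54 to -2.80 percentage points for beta-like reads and from 0.742 to -1.60 for alpha-like reads. Without WT3 the beta-like difference was 1.05 and the alpha-like difference 0.145, and without KI2 they were 11.9 and 3.09. Without WT1 they were 8.03 and 1.34.

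**Figure D2:**
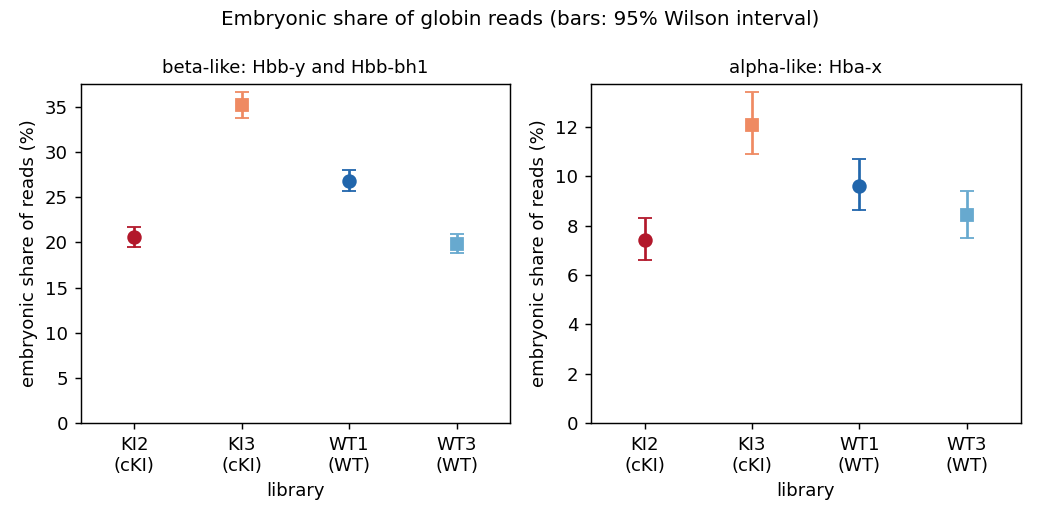
Embryonic share of beta-like (left) and alpha-like (right) globin reads in percent for each library, with 95% Wilson intervals for counting error. KI3 is the highest in both panels at 35.2% and 12.1%, and each genotype has 1 higher and 1 lower library.

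Levels of different genes were compared per kb of the longest annotated coding transcript. On this scale Hbb-bs had a mean of 268.0 CPM per kb over the 4 libraries (183.0 to 317.6) and Hba-a1 213.0 (160.0 to 262.6). Their ranges overlapped, so this order is not larger than the spread. Hbb-y at 116.6 (94.1 to 135.1) and Hbb-bt at 78.7 (54.4 to 107.2) overlapped as well, and so did Hba-a2 at 23.2 (13.3 to 28.5) and Hba-x at 20.3 (19.1 to 21.4). Hba-a1 did not overlap with Hbb-y, nor Hbb-bt with Hba-a2.

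Alas2, Hbb-bh1 and Slc4a1 were the 3 lowest members per kb. Alas2, at 3.98 CPM per kb (2.74 to 4.93), did not overlap with its neighbours. Hbb-bh1 at 0.943 (0.460 to 1.20) and Slc4a1 at 0.395 (0.237 to 0.581) overlapped. Summed per kb, alpha-like reads were 0.649 and 0.555 times the beta-like reads in KI2 and KI3 and 0.513 and 0.506 times in WT1 and WT3. How reads shared by Hba-a1 and Hba-a2, or by Hbb-bs and Hbb-bt, were counted is not given in the sources used here. The order of adult-type against embryonic genes per kb depends on it.

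Alas2 encodes the first enzyme of heme synthesis in red cell precursors. It had 7.44 and 5.57 CPM in KI2 and KI3, against 10.05 and 9.36 in WT1 and WT3, from 101 to 177 reads. Both cKI f/+ libraries were below both WT libraries, with TMM-normalized means of 6.53 ± 1.36 CPM (SD, n = 2) in cKI f/+ and 9.69 ± 0.481 CPM (SD, n = 2) in WT. Alas2 lies on chromosome X, so it shares its chromosome with the Xist difference between the groups. Its exons also overlap those of Apex2 on the opposite strand over 311 of 2403 bases, and whether the counting used strand is not given in the sources used here. Apex2 had 344 and 462 reads in KI2 and KI3 and 410 and 416 in WT1 and WT3.

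Slc4a1 encodes band 3, the anion exchanger of the red cell membrane. It had 36 and 26 reads in KI2 and KI3 and 19 and 46 in WT1 and WT3. The WT libraries enclosed both cKI f/+ libraries.

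**Figure D3:**
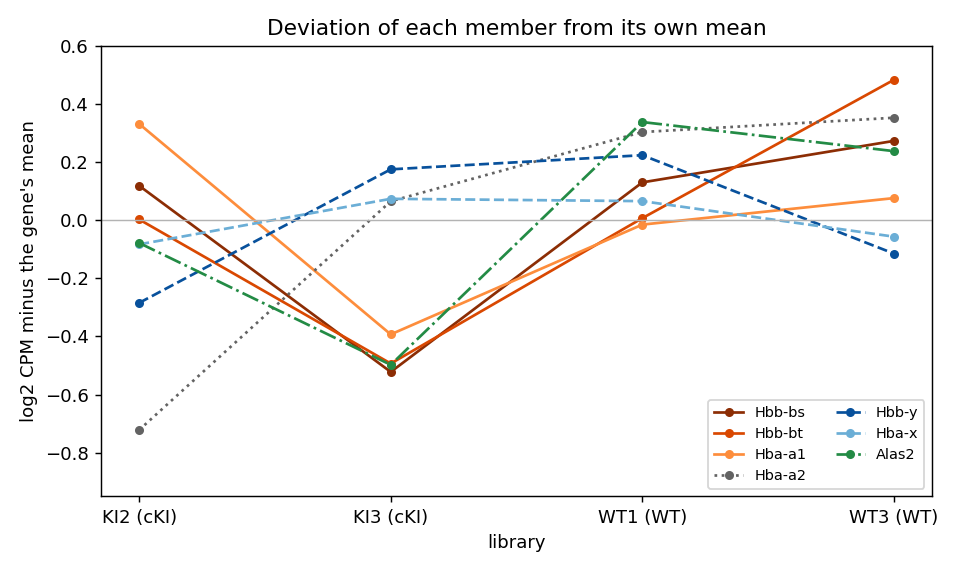
Log2 CPM of 7 members minus the mean of each gene over the 4 libraries (TMM-normalized, prior count 2). Hbb-bs, Hbb-bt, Hba-a1 and Alas2 lie between -0.52 and -0.39 in KI3, while Hbb-y and Hba-x lie above their means there, and Hba-a2 is lowest in KI2 at -0.72.

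Differential expression between genotypes was tested with edgeR's quasi-likelihood test over 15786 genes, and a gene was called at a Benjamini-Hochberg adjusted p under 0.05. Of the 9 members 0 were called, where 0.12% of all tested genes were. DESeq2 and edgeR's likelihood ratio test also called 0. At an unadjusted p under 0.05, 3 members were lower in cKI f/+ (Alas2, Hbb-bt and Hba-a2) and 0 higher, against 4.6% of all tested genes in either direction. Both cKI f/+ libraries lay below both WT libraries for 4 members, those 3 and Hbb-bs, as did 16.9% of all tested genes. For Hbb-bt and Hbb-bs the gap between KI2 and WT1 was within counting error (951 against 955 and 3157 against 3186 reads). Hba-a2 lay below only as a single copy. Its sum with Hba-a1 was highest in KI2, at 191.0 CPM. For Hba-a2 the TMM-normalized means were 10.2 ± 3.87 CPM (SD, n = 2) in cKI f/+ and 15.5 ± 0.376 CPM (SD, n = 2) in WT. For 0 members both cKI f/+ libraries lay above both WT libraries, against 17.3% of all tested genes. The median log2 fold change of the members was -0.37, beside 0.0043 over all tested genes. This median counts each near-identical copy singly. With the copies summed, 7 members were tested, and the middle one of their values was that of Hbb-y, -0.10. The members are not independent of each other, since the copies share sequence.

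On the log2 scale cKI f/+ differed from WT by -0.61 for Hba-a2 (edgeR, standard error 0.22, adjusted p = 0.969) and by -0.57 for Alas2 (edgeR, standard error 0.19, adjusted p = 0.969). Hbb-bt stood at -0.49 (standard error 0.18) and Hbb-bs at -0.37 (standard error 0.17), both with the same adjusted p. Hba-a1 at -0.02 (standard error 0.18) and Hba-x at -0.01 (standard error 0.13) were near 0. Hbb-y had -0.10 (standard error 0.15), Hbb-bh1 -0.38 (standard error 0.56) and Slc4a1 -0.10 (standard error 0.43). With the copies summed, the pair Hba-a1 and Hba-a2 had -0.06 and the pair Hbb-bs and Hbb-bt -0.40.

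Single libraries decided some of these calls. Without KI2, Hbb-bs was called at -0.74 (adjusted p = 0.0125 from edgeR). Without KI3, Hba-a2 was called at -1.06 (adjusted p = 0.0304) while Hba-a1 turned to 0.30. Without WT1, Hbb-bt was called at -0.71 (adjusted p = 0.0368). In these fits 1 arm is a single library, which is assumed to vary like the other group, and between 46 and 52 of all genes were called. Without WT3, 0 members and 71 of all genes were called.

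**Figure D4:**
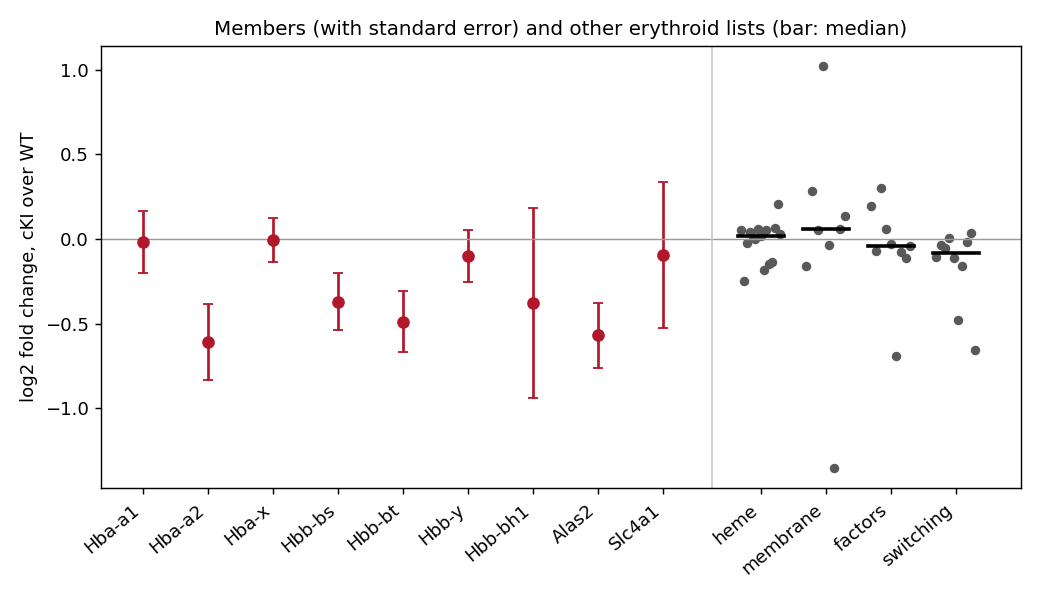
Log2 fold change of cKI f/+ over WT for the 9 members with standard errors (left) and for single genes of the heme, membrane, factor and switching lists with the list median as a bar (right). The members lie between -0.61 and -0.01, and the list medians between -0.08 and 0.06.

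The globins varied more between libraries of one group than most genes did. Over 10036 tested genes with a mean of at least 10 CPM, the median within-group SD of log2 CPM was 0.087. It was 0.39 for Hba-a2, 0.37 for Hba-a1, 0.34 for Hbb-bt, 0.33 for Hbb-bs and 0.29 for Hbb-y. Between 97.5% and 99.2% of these genes had a smaller SD than these 5 globins. Hba-x had 0.099, which 58.8% of the genes fell below.

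Other genes of the red cell program were followed in lists. Of the heme genes, all 15 were tested, 0 were called and 0 had an unadjusted p under 0.05, and the median of their log2 fold changes was 0.02. Ppox, the enzyme of the penultimate step of heme synthesis, had the most reads in this list summed over the 4 libraries, 1109 and 1014 in cKI f/+ and 1044 and 957 in WT. In WT3 Alad, an earlier enzyme of the pathway, had more, 1018 reads. Most of these enzymes are made in all cells, so their reads need not come from blood.

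Of 13 red cell membrane genes in the table, 8 were tested and 0 called, and their log2 fold changes had a median of 0.06. Ermap, a surface protein of erythroid cells, had 7 and 6 reads in cKI f/+ and 14 and 19 in WT (edgeR, log2 fold change -1.35, standard error 0.49, adjusted p = 0.969). Add2, a beta-adducin that is also neuronal, had the most reads, 4974 to 6018 per library.

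Of 15 erythroid factor, receptor and maturation genes in the table, 9 were tested and 0 called. Their log2 fold changes had a median of -0.04. Ldb1, a widely expressed cofactor of the erythroid GATA complex, had the most reads with 10052 to 11290. Of defining erythroid factors in this list, Gata1 was below the floor of 3 reads in every library, while Klf1 and Tal1 were low but above it. Gata1 had 1 and 0 reads in cKI f/+ and 2 and 0 in WT, Klf1 had 9 and 10 against 9 and 18, and Tal1 had 28 and 21 against 21 and 21.

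The regulators of globin switching held 10 tested genes, of which 0 were called. The median of their log2 fold changes was -0.08. Bcl11a, which represses embryonic globins in red cells and is also made by cortical neurons, had 6848 and 6440 reads in cKI f/+ and 7201 and 6860 in WT. The most abundant gene of the list was Chd4, a chromatin remodeler, with 11169 to 13139 reads. In cortex these reads need not come from red cells. Of 5 other globin genes in the table, 2 were tested and 0 called. Cygb, cytoglobin, had 545 to 612 reads. Ngb, neuroglobin, had 4 and 8 reads in cKI f/+ and 14 and 15 in WT (edgeR, log2 fold change -1.28, standard error 0.53, adjusted p = 0.969).

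Markers of other blood, vessel and border cells were measured beside the globins. Platelet markers summed to between 15.9 and 18.1 CPM over the 4 libraries, with all 8 genes in the table, 2 tested and 0 called. Gp1bb had the most reads, 225 to 249, and with 12.8 to 13.9 CPM it made up most of each sum. Pf4 had only 3 to 9 reads and Ppbp 0 to 4. Of leukocyte and microglia markers 10 of 12 were in the table, 9 were tested and 0 called. In 4 of these 9 both cKI f/+ libraries lay below both WT libraries, against 16.9% of all tested genes. In 1, C1qa, both lay above, against 17.3%. At an unadjusted p under 0.05, 1 was lower and 0 higher, against 4.6% of all tested genes in either direction. This was Cx3cr1 of microglia, with 73 and 95 reads in cKI f/+ and 119 and 131 in WT (edgeR, log2 fold change -0.60, standard error 0.20, adjusted p = 0.969). The median of the 9 log2 fold changes was 0.05. The part of these cells in the globin values was not tested. The list summed to 30.2 and 35.4 CPM in cKI f/+ and 37.7 and 35.5 in WT, led by Csf1r with 181 to 209 reads. The 10 endothelial markers, all tested and 0 called, summed to 117.8 and 128.4 CPM in cKI f/+ and 131.0 and 128.3 in WT, led by Cldn5 with 391 to 419 reads. In KI3, the library lowest in adult-type globins, this sum was level with that of WT3. Single genes of the list differed in KI3. Tek was lowest there (53 reads, against 66 to 76 in the other libraries). Pecam1 (312 reads, against 253 to 282) and Kdr (413 reads, against 320 to 400) were highest there. In 4 of the 10 endothelial markers both cKI f/+ libraries lay below both WT libraries, against 16.9% of all tested genes. In 1 both lay above, against 17.3%. The part of vessel content in the globin values was not tested.

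Meningeal markers summed to 21.6 and 19.8 CPM in cKI f/+ and 10.1 and 11.1 in WT. All 7 were in the table and 5 were tested. Of these 0 were called and 4 were higher in cKI f/+ at an unadjusted p under 0.05 in edgeR, against 4.6% of all tested genes in either direction. Foxc1 went the other way (edgeR, log2 fold change -0.49, standard error 0.33, adjusted p = 0.969). Col3a1 had the most reads with 117 and 121 in cKI f/+ against 72 and 64 in WT. Of 6 choroid plexus markers 5 were tested, 0 were called and 3 were higher at an unadjusted p under 0.05 in edgeR, against the same 4.6%. Ttr had 116 and 956 reads in KI2 and KI3 and 0 and 4 in WT1 and WT3, and KI3 was the highest. The part of either list in the globin values was not tested.

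The genes whose pattern over the 4 libraries was closest to the mean of the 4 adult-type globins were Cthrc1, Aph1c, 9330162G02Rik, Zfp711 and Alg6. Closeness was the Euclidean distance of log2 CPM centred on the mean of each gene, which was 0.026 for Cthrc1 and 0.049 for Alg6. The adult-type mean itself deviated by -0.07 and -0.34 in KI2 and KI3 and by 0.11 and 0.30 in WT1 and WT3. The adult-type globins are part of this mean, so their own distances to it (0.27 for Hbb-bs, 0.27 for Hbb-bt, 0.47 for Hba-a1 and 0.79 for Hba-a2) are partly set by that. The embryonic globins lay at 0.54 for Hba-x, 0.70 for Hbb-y and 1.01 for Hbb-bh1, so Hba-a2 was farther from the mean than Hba-x and Hbb-y. With 4 libraries many genes can share such a pattern. Cthrc1 had 28 to 42 reads per library and Aph1c 29 to 45, so their distances are subject to counting error. Hba-a1 and Hba-a2 deviated in opposite directions in KI2 (0.33 and -0.72), so the mean is not the pattern of each single globin.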

How the data were processed

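Total RNA of E15 cortex was sequenced on an Illumina HiSeq instrument (the study's methods name the tissue as telencephalic), and the authors deposited raw counts of reads per gene for 4 libraries, without normalization. The submitters' processing notes in the labels name Bowtie2 2.2.3, TopHat2 2.0.12, HTSeq 0.6.0 and mm9, without roles. For 9 of 9 members the table gives the position that GENCODE M21 has on GRCm38. How reads mapping to several genes were handled is not given in the sources used here. The deposited table also holds the authors' comparison of the groups, not used here: a mean signal over libraries, a fold change as ratio and as log2, and a p-value.

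Column names give the genotype, but not which labelled sample of that genotype a column holds. The study's general methods define biological replicates in mice as different embryos, and the labels speak of triplicates, while 2 libraries per genotype were analysed here. The labels do not tie a library to an embryo, so p-values measure the spread between these libraries, which may in part be technical. The libraries of a group differed beyond counting noise (chi-square per degree of freedom 5.63 in cKI f/+ and 7.49 in WT).

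The members and lists were chosen with earlier results of these data known. edgeR 4.0.16 in R 4.3.3 tested 15786 of 26433 genes (filterByExpr, TMM, quasi-likelihood, Benjamini-Hochberg, threshold 0.05). The standard error is the fold change divided by the square root of F. The quasi-likelihood test was tested on simulated data. DESeq2 1.42.0, the likelihood ratio test, other normalizations and filters, summed copies, dropping genes on X and Y, and leaving out each library were the alternatives.

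Named genes are the 9 members, listed erythroid genes with an unadjusted p under 0.05, the most abundant gene of each list and the 5 closest in pattern. Gata1, Klf1, Tal1, Bcl11a, Apex2, Tek, Pecam1, Kdr, Cx3cr1, C1qa, Foxc1 and Alad were chosen after their values were seen. Rhag, Cldn13, Ahsp, Car1, S100a8, S100a9, Hbb-bh2, Hbb-bh0, Hbb-b1 and Hbb-b2 were listed but had no row under these symbols in the count table used here.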

Additional observations from a re-analysis of the deposited data

How the results depend on the processing

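Under 9 alternatives that kept all libraries, the number of called members and of called genes of the erythroid lists stayed at 0, and all 77 fold changes of members kept their direction. They moved by at most 0.046 on the log2 scale, the largest shift coming from summed copies. The lowest adjusted p among them was 0.694. The number of all genes called was 19 in the main test. DESeq2 called 24 and edgeR's likelihood ratio test 54, and the main test called 16 with genes of at least 1 count in all, 11 without chromosomes X and Y, 6 with at least 10 counts in every library and 46 to 71 with 1 library left out. With 1 library left out the number of called members was between 0 and 1, and the erythroid lists had 0 calls in each of these fits. The log2 fold change lay between -0.43 and 0.30 for Hba-a1, between -0.35 and 0.10 for Hbb-y, between -0.094 and 0.058 for Hba-x, between -1.19 and 0.12 for Hbb-bh1 and between -0.60 and 0.69 for Slc4a1, so these 5 changed direction with the library left out. It lay between -1.06 and -0.28 for Hba-a2, -0.74 and -0.09 for Hbb-bs, -0.77 and -0.23 for Hbb-bt and -0.81 and -0.38 for Alas2. The difference in embryonic share lay between -2.80 and 11.9 percentage points for beta-like reads and between -1.60 and 3.09 for alpha-like reads. The difference in the globin share of the library lay between -0.0136 and -0.00164. Per kb of transcript the differences in embryonic share were 4.55 and 0.688, and with Hbb-bh1 alone 0.0332 percentage points. No paired analysis was possible because the labels of the groups share no replicate number.

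With 2 libraries per group and 5 to 46 reads, Hbb-bh1 and Slc4a1 are limited by depth, and theta globins (Hbq1a and Hbq1b) had too few reads to be tested.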

Other observations

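Alad, the second enzyme of heme synthesis, had 983 and 631 reads in KI2 and KI3 and 864 and 1018 in WT1 and WT3, so KI3 was the lowest library as for Hbb-bs. Its reads came to between 20.9% and 23.9% of the adult-type beta-like reads in each library, and in closeness to the adult-type mean it ranked 1157 of 15786 tested genes. Its log2 fold change between genotypes was -0.25 (edgeR, standard error 0.19, adjusted p = 0.969).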
